A study of Homo sapiens with 9 samples.

Results

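B2M, SERPINB9 and IDO1 are 3 of 9 genes of MHC class I antigen presentation and immune evasion that were listed by name for H9, a human embryonic stem cell line, and for cells derived from it. The other 6 listed genes (HLA-B, HLA-C, HLA-E, TAP1, TAP2 and TAPBP) were not analysed here, so no classical class I heavy chain and no subunit of the peptide transporter is described. The 3 genes belong to 21417 gene symbols with RPKM values, a read number divided by the length of the transcript and the depth of the library. Each symbol was read from its transcript with the highest mean. The genes were chosen with their levels in these libraries in view, so their levels and differences are given as a description, with no p-value.

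Total RNA of 9 libraries, 3 per group, was sequenced. Neuroectoderm was derived with 200 nM NOGGIN, which antagonizes BMP, and 10 µM SB431542, which blocks the activin and Nodal receptors, and was taken at day 5. Mesendoderm was derived with BMP4 at 5 ng/ml in mTeSR1 medium and was also taken at day 5. Undifferentiated H9 cells, called hESC here, were grown on Matrigel in mTeSR1 and taken at day 0, so the days and the factors of differentiation cannot be told apart. All groups come from 1 cell line, and the labels do not say that the 3 libraries of a group are separate cultures. The p-values of other genes below then measure only the spread between these libraries, which may be technical.

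MHC class I molecules show peptides from inside the cell to cytotoxic T cells, and natural killer cells respond to cells that lack them. B2M encodes beta-2-microglobulin, the light chain that class I heavy chains need to reach the surface, and pluripotent cells are known for little class I on their surface. SERPINB9 encodes an inhibitor of granzyme B, the protease that cytotoxic lymphocytes deliver into target cells. IDO1 encodes an enzyme that opens the ring of tryptophan on the way to kynurenine, and loss of tryptophan and gain of kynurenine restrain T cells. B2M and IDO1 are both known to be induced by interferon gamma.

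The denominators of the RPKM values came to 36.9 to 69.7 M reads per library. A transcript of 1 kb with 3 reads has 0.043 to 0.0813 RPKM, a floor that covers counting error only. Correlations of libraries within a group were 0.933 to 0.992 (Pearson's r across genes, which are not independent replicates). Neuroectoderm replicate 1, mesendoderm replicate 1 and hESC replicate 2 stood apart within their groups: their deviations from the group mean correlated with the GC content of transcripts at -0.56, -0.286 and -0.617 (Spearman, across 12901 genes), against 0.191 to 0.585 in the other 6. The 6 neuroectoderm markers (PAX6, SOX1 and others) summed to 88.66 to 147.99 RPKM in neuroectoderm, 0.31 to 0.6 in mesendoderm and 0.9 to 1.36 in hESC. In neuroectoderm the sum came mostly from PAX3 (68.1 RPKM), PAX6 (28.4 RPKM) and SOX1 (21.1 RPKM), with ZIC1 at 7.38 RPKM. LHX2 and SIX3 averaged only 0.123 and 0.0833 RPKM there, beside 0.103 and 0.0667 RPKM in hESC. The 10 mesendoderm markers (T, MIXL1, EOMES and others) summed to 0.75 to 1.22 RPKM in neuroectoderm, 187.56 to 235.34 in mesendoderm and 0.72 to 1.18 in hESC. Their sum in mesendoderm came mostly from T, MIXL1, EOMES and HAND1, while the endoderm factors SOX17 and FOXA2 averaged 0.22 and 0.0367 RPKM there, and FOXA2 averaged 0.227 RPKM in hESC. The 7 pluripotency markers summed to 329.82 to 346.38 RPKM in neuroectoderm, 433.44 to 508.6 in mesendoderm and 884.28 to 964.97 in hESC. Most of this sum in neuroectoderm was LIN28A, at 275.0 RPKM beside 307.0 RPKM in hESC, whereas NANOG averaged 0.127 RPKM in neuroectoderm, 12.2 RPKM in mesendoderm and 22.0 RPKM in hESC.

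B2M was higher in mesendoderm than in the other cell types and did not separate neuroectoderm from hESC. Its levels were 11.3, 21.74 and 21.43 RPKM in neuroectoderm, 57.71, 56.24 and 60.25 RPKM in mesendoderm and 18.72, 16.39 and 17.61 RPKM in hESC (replicates 1 to 3). All mesendoderm libraries lay above the other 6, while the neuroectoderm libraries lay on both sides of the hESC libraries. The gene lies on chromosome 15 and was read from NM_004048, a transcript of 943 bases. In the 250 bases before its start, shown because they hold the elements through which class I genes are known to answer interferon and NF-kappaB, the capitals mark matches to an interferon-stimulated response element, an NF-kappaB site and a CCAAT box (chr15:44711267-44711516, plus strand, GRCh38.p14, RefSeq).
B2M: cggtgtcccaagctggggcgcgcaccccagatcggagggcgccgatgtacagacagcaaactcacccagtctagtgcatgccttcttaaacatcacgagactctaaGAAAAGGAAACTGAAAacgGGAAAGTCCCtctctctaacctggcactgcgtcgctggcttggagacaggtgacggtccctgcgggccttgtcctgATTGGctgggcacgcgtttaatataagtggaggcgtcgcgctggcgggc
The interferon-stimulated response element was searched on both strands as GAAA, any 2 bases and GAAA, and B2M held 2 overlapping matches, 144 and 138 bases before the start. An NF-kappaB match began 125 bases before the start, and a CCAAT box, read on the other strand as ATTGG, 49 bases before it. Among 35116 RefSeq promoters of 300 bases (250 before to 50 after the start), 3.57% held the response element, 5.91% the NF-kappaB motif and 34.6% a CCAAT box. A CRE half-site (TGACG, in 24.6% of promoters) began 75 bases before the start, and no gamma-activated site (TTCNNNGAA, in 7.66%) was matched in the window. These matches describe letters and were not tied to a factor in these cells.

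On the log2(RPKM + 1) scale, which understates differences of low genes, B2M differed by 1.67 ± 0.22 between mesendoderm and hESC (log2 difference ± SE), a ratio of 3.31 between mean levels of 58.07 ± 2.03 RPKM in mesendoderm and 17.57 ± 1.17 RPKM in hESC (SD, n = 3 each). Leaving out single libraries moved this difference between 1.62 and 1.72, and it was 1.63 ± 0.08 without the 3 libraries that stood apart. Between neuroectoderm and hESC the difference was -0.01 ± 0.22, from mean levels of 18.16 ± 5.94 RPKM in neuroectoderm and 17.57 ± 1.17 RPKM in hESC (SD, n = 3 each). The spread of the neuroectoderm group came from replicate 1, whose 11.3 RPKM lay under all hESC libraries, while replicates 2 and 3 lay above them. Without the 3 libraries that stood apart the difference was 0.24 ± 0.08, and single libraries left out gave -0.16 to 0.28, so its direction was not settled. Between neuroectoderm and mesendoderm B2M differed by -1.68 ± 0.22, or -1.39 ± 0.08 without the 3 libraries. B2M stood above 78.7% of the 14473 genes tested in neuroectoderm, 93.0% in mesendoderm and 76.8% in hESC. In bulk RNA, fewer cells of a type and less RNA per cell cannot be told apart.

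**Figure D1:**
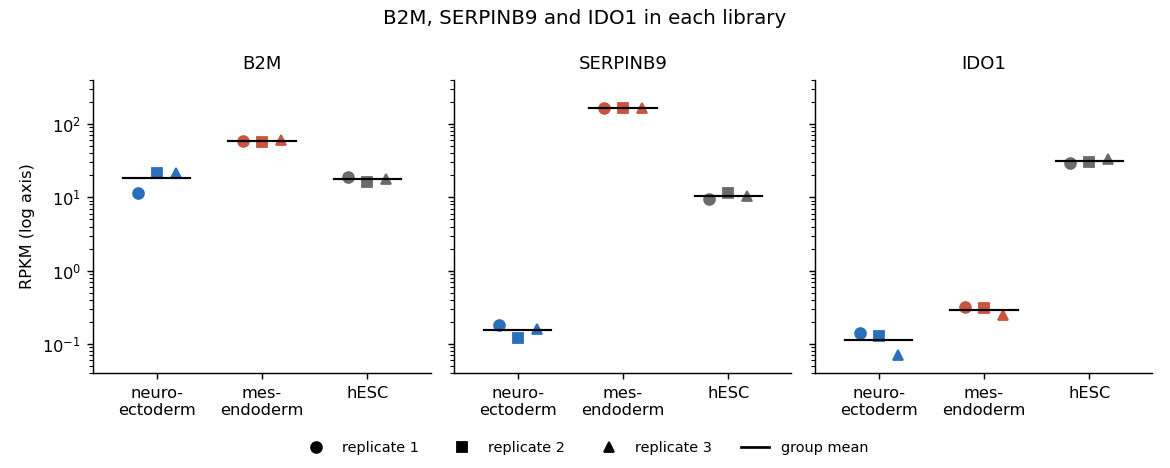
RPKM on a log axis of B2M, SERPINB9 and IDO1 in each of 9 libraries, grouped as neuroectoderm, mesendoderm and hESC, with symbols for replicates and lines at group means. SERPINB9 lies at 0.12 to 0.18 RPKM in neuroectoderm, 162.28 to 165.84 in mesendoderm and 9.46 to 11.53 in hESC, and IDO1 lies at 29.61 to 33.21 RPKM in hESC and at or below 0.32 RPKM elsewhere.

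The 2 protein-coding genes next to B2M in the annotation, PATL2 and TRIM69, averaged under 0.5 RPKM in every group. SPG11, with 1 gene between it and B2M, averaged 14.2 ± 2.6 RPKM in neuroectoderm, 8.88 ± 1.48 RPKM in mesendoderm and 8.87 ± 1.25 RPKM in hESC (SD, n = 3 each). None of these 3 neighbours of B2M was highest in mesendoderm. The 3 genes whose centred log2 values were most like those of B2M over the 9 libraries were PPP1R2 (root mean square difference 0.119), EPHA2 (0.145) and SHB (0.146). PPP1R2, a protein phosphatase inhibitor, averaged 4.01 ± 0.92 RPKM in neuroectoderm, 13.9 ± 0.59 RPKM in mesendoderm and 3.98 ± 0.36 RPKM in hESC (SD, n = 3 each).

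Of the genes that work beside B2M, more were lower than higher in neuroectoderm, and those called in mesendoderm went in both directions. The class I partner list holds chaperones, immunoproteasome and proteasome subunits and trimming peptidases, and 18 of its 28 genes were tested with limma, with Benjamini-Hochberg adjustment over all 14473 genes. Neuroectoderm against hESC gave 2 higher and 7 lower, that is, 9 of 18 called, beside 44.2% of all genes (21.9% higher, 22.3% lower). The median log2 difference of the list was -0.47, beside -0.02 over all genes. Mesendoderm against hESC gave 3 higher and 3 lower, 33.3% beside 35.1% of all genes (17.0% higher, 18.1% lower), with a median of 0.08 beside -0.02. This count was 3 without mesendoderm replicate 1, 2 without mesendoderm replicate 3 and 2 without hESC replicate 2. After removal of small RNA genes and rescaling, 0 were higher and 3 lower. Neuroectoderm against mesendoderm gave 2 higher and 10 lower, 66.7% beside 48.1% of all genes (24.0% higher, 24.1% lower), with a median of -0.43 beside -0.01. That count was 5 without mesendoderm replicate 2 and 7 without mesendoderm replicate 3.

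PSMB10, a catalytic subunit of the immunoproteasome, had 1.76, 2.72 and 3.07 RPKM in neuroectoderm, against 12.93, 5.41 and 9.04 RPKM in hESC (log2 difference -1.47 ± 0.30, adjusted p = 0.00381). ERAP1, which trims peptides in the endoplasmic reticulum, was the gene with opposite changes: it had 9.97, 7.97 and 8.73 RPKM in neuroectoderm, 3.69, 3.45 and 3.24 RPKM in mesendoderm and 6.04, 6.18 and 6.16 RPKM in hESC. It was higher in neuroectoderm than in hESC by 0.47 ± 0.10 (adjusted p = 0.00422, or 0.108 with small RNA left out) and lower in mesendoderm than in hESC, at -0.68 ± 0.10 (adjusted p = 7.05e-04). HSPA5, a chaperone of the endoplasmic reticulum, fell to 34.57 ± 6.73 RPKM in neuroectoderm, against 96.94 ± 6.40 RPKM in mesendoderm (SD, n = 3 each, adjusted p = 1.27e-04 by limma). CALR, a chaperone that helps to load class I molecules, was the most abundant gene of the list at 266.0 ± 109.6 RPKM in neuroectoderm and 447.0 ± 93.4 RPKM in hESC (SD, n = 3 each). Its difference of -0.83 ± 0.34 did not pass (adjusted p = 0.0764), and neuroectoderm replicate 1 had the lowest level, 141.95 RPKM. Without the 3 libraries that stood apart it passed (adjusted p = 0.0102).

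The class I control list holds interferon receptors and their kinases, the factors that act on class I promoters and brakes on them, and 33 of 36 genes were tested. When neuroectoderm was set against hESC, 7 were higher and 8 lower (45.5% called), and in mesendoderm against hESC 7 were higher and 7 lower (42.4%). In neuroectoderm against mesendoderm 5 were higher and 8 lower (39.4%). Over all genes 44.2%, 35.1% and 48.1% were called in these 3 comparisons. The medians of the list, -0.08, 0.01 and -0.12, stood beside -0.02, -0.02 and -0.01 over all genes. Without hESC replicate 3 the count in neuroectoderm against hESC was 9. For mesendoderm against hESC it was 7 without mesendoderm replicate 3, 8 without mesendoderm replicate 1 and 9 without mesendoderm replicate 2, hESC replicate 2 or hESC replicate 3. Among the brakes, SOCS3, a suppressor of cytokine signalling, was higher in mesendoderm (26.56, 24.07 and 28.66 RPKM) than in hESC (9.7, 7.34 and 9.44 RPKM), at 1.49 ± 0.16 (adjusted p = 1e-04). SOCS1, which blocks the interferon receptor kinases, had 0.18, 0.77 and 0.86 RPKM in neuroectoderm, 3.66, 8.57 and 5.75 RPKM in mesendoderm and 2.08, 1.41 and 2.77 RPKM in hESC. It was higher in mesendoderm than in hESC (1.14 ± 0.28, adjusted p = 0.0133, and not called at an adjusted p of 0.05 with a pseudocount of 0.1). It was lower in neuroectoderm than in hESC (-0.95 ± 0.28, adjusted p = 0.0242), a call lost without neuroectoderm replicate 1 (adjusted p = 0.0567), hESC replicate 1 (0.0665) or hESC replicate 3 (0.0893).

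JAK1, a kinase of the interferon receptors, had 1.97, 2.62 and 2.54 RPKM in neuroectoderm, against 5.72, 5.32 and 6.19 RPKM in hESC (-1.0 ± 0.11, adjusted p = 9.37e-05). In mesendoderm it had 6.57, 5.64 and 6.45 RPKM and was not called against hESC (0.10 ± 0.11, adjusted p = 0.529). NFKBIA, the inhibitor that holds NF-kappaB in the cytoplasm, was higher in mesendoderm than in hESC (1.16 ± 0.18, adjusted p = 0.00115). It was lower in neuroectoderm than in hESC (-0.57 ± 0.18, adjusted p = 0.0304), a call lost without neuroectoderm replicate 1 (adjusted p = 0.0642) or 2 (0.0621) or without hESC replicate 1 (0.0841) or 3 (0.106). EZH2, the histone methyltransferase known to silence class I genes in some tumours, had 39.36 to 40.69 RPKM in neuroectoderm, 17.76 to 19.05 RPKM in mesendoderm and 26.33 to 28.79 RPKM in hESC. It was higher in neuroectoderm than in hESC (0.52 ± 0.10, adjusted p = 0.00204, or 0.0871 with small RNA left out) and lower in mesendoderm than in hESC (-0.56 ± 0.10, adjusted p = 0.00186). NLRC5, the transactivator of class I genes, averaged 0.21 RPKM in neuroectoderm, 0.13 RPKM in mesendoderm and 0.57 RPKM in hESC and lay under the minimum mean of 0.5 RPKM for a test. It was named after its values were seen.

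SERPINB9 moved in opposite directions in the derived cell types. It had 0.18, 0.12 and 0.16 RPKM in neuroectoderm, 162.28, 165.84 and 164.43 RPKM in mesendoderm and 9.46, 11.53 and 10.35 RPKM in hESC (replicates 1 to 3). No groups overlapped, and within each group the libraries lay close together. The gene lies on chromosome 6 and was read from NM_004155, a transcript of 4118 bases. The 250 bases before its start are shown for comparison with those of B2M, with a CCAAT box and a TATA box in capitals (chr6:2903310-2903559, minus strand, GRCh38.p14, RefSeq).
SERPINB9: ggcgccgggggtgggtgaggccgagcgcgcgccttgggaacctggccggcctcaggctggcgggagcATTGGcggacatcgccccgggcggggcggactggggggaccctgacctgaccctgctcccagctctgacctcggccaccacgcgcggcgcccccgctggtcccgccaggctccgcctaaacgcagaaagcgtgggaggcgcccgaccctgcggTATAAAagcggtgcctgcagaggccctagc
The TATA box (TATAAA, in 11.5% of promoters) began 30 bases before the start, and the CCAAT box, again as ATTGG, 183 bases before it. A pair of GC boxes (GGGCGG, in 45.0% of promoters) began 165 and 160 bases before the start. The response element, the gamma-activated site, the NF-kappaB motif and the CRE half-site were not matched in this window, while B2M held no GC box and no TATAAA.

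In mesendoderm the mean level of SERPINB9 was 164.2 ± 1.8 RPKM, against 10.45 ± 1.04 RPKM in hESC (SD, n = 3 each), a ratio of 15.7. The log2 difference was 3.86 ± 0.10, and 44 of 14473 genes had a larger one. Leaving out single libraries gave 3.79 to 3.92. In neuroectoderm the mean level was 0.153 ± 0.031 RPKM, against 10.45 ± 1.04 RPKM in hESC (SD, n = 3 each), so hESC was 68.2 times as high. The log2 difference was -3.31 ± 0.10 with the pseudocount of 1 and -5.38 ± 0.12 with a pseudocount of 0.1. The neuroectoderm values correspond to 29.9, 34.4 and 26.9 reads, and 3 reads on this transcript amount to 0.0105 to 0.0181 RPKM there, so the low level was above the floor.

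Between neuroectoderm and mesendoderm SERPINB9 differed by -7.16 ± 0.10, and by -7.19 ± 0.08 without the 3 libraries that stood apart. Only 2 of 14473 genes had a more negative difference. Mesendoderm was 1071 times as high as neuroectoderm in mean RPKM. SERPINB9 stood above 2.4% of tested genes in neuroectoderm, 96.9% in mesendoderm and 64.1% in hESC, and it passed the minimum for a test through mesendoderm and hESC alone. The summed markers of trophoblast, a tissue known for SERPINB9, were also higher in mesendoderm, though not every marker was. The 8 measured markers of 10 summed to 1.2 to 1.47 RPKM in neuroectoderm, 48.95 to 58.65 RPKM in mesendoderm and 5.2 to 7.36 RPKM in hESC. None of the 8 had a mean of 0. The sum in mesendoderm came mostly from KRT7 (26.3 RPKM), TFAP2A (14.7 RPKM) and GATA3 (10.5 RPKM). VGLL1 averaged 1.83 RPKM there, beside 0.0767 RPKM in neuroectoderm and 0.05 RPKM in hESC. The syncytiotrophoblast factor GCM1 (0.167 RPKM), ELF5 (0.247 RPKM) and CYP19A1 (0.163 RPKM) were low in mesendoderm, though their means were highest in that group. The hormone subunit CGA was lower in mesendoderm (0.0433 RPKM) than in hESC (0.213 RPKM). The 7 fibroblast markers summed to 36.79 to 66.24 RPKM in neuroectoderm, 147.94 to 155.61 RPKM in mesendoderm and 81.65 to 131.27 RPKM in hESC. Most of the sum in hESC was THY1, at 75.1 RPKM beside 44.1 RPKM in mesendoderm. COL1A1 was also higher in hESC (5.1 RPKM beside 3.4 RPKM), while COL1A2, COL3A1, PDGFRB, LUM and DCN had higher means in mesendoderm. Whether trophoblast or fibroblast cells were present, and their part in the levels of SERPINB9 and B2M, was not tested. The 9 immune cell markers summed to 1.26 to 5.71 RPKM in neuroectoderm, 1.21 to 1.42 RPKM in mesendoderm and 3.11 to 4.25 RPKM in hESC, and PTPRC, the marker of all leukocytes, averaged 0.09 RPKM in neuroectoderm, 0.03 RPKM in mesendoderm and 0.0933 RPKM in hESC.

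**Figure D2:**
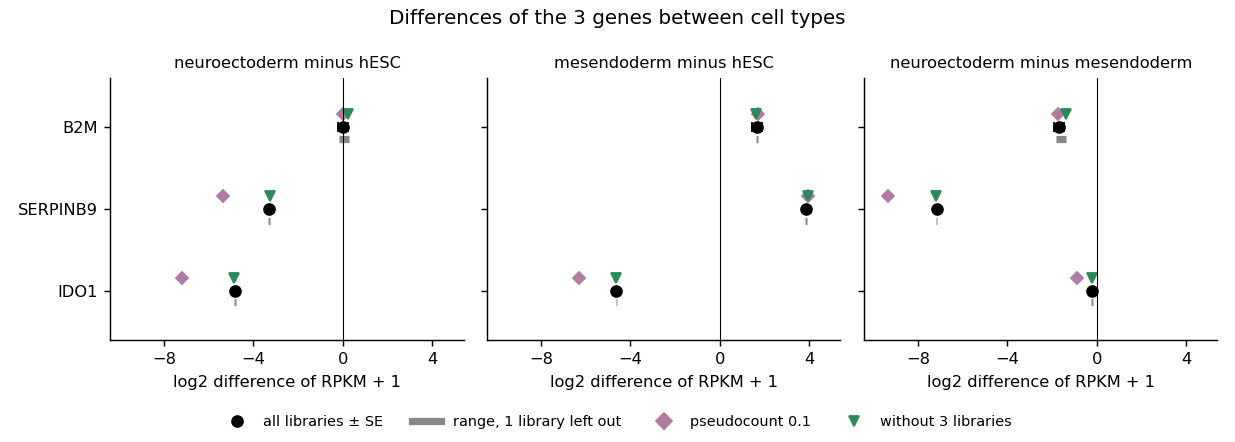
Log2 differences of log2(RPKM + 1) for B2M, SERPINB9 and IDO1 in the 3 comparisons: black points with SE from all libraries, grey bars over single libraries left out, diamonds with a pseudocount of 0.1, triangles without the 3 libraries that stood apart. SERPINB9 lies at -3.31 and 3.86 against hESC, and the smaller pseudocount widens the differences of genes that are near 0 in a group.

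SERPINB1 and SERPINB6 lie on either side of SERPINB9 in the order of protein-coding genes on chromosome 6, with no protein-coding gene between, and belong to the same clade of intracellular protease inhibitors. The neighbours of the 3 genes and SERPINB8 were looked up after values had been seen. SERPINB6, an inhibitor of cathepsin G, had 5.35, 8.19 and 6.73 RPKM in neuroectoderm, 44.9, 50.58 and 50.19 RPKM in mesendoderm and 12.14, 9.9 and 12.27 RPKM in hESC. It fell in neuroectoderm against hESC (-0.69 ± 0.15, adjusted p = 0.00543) and rose in mesendoderm against hESC (2.0 ± 0.15, adjusted p = 1.5e-05), the same order of groups as SERPINB9. SERPINB1, an inhibitor of neutrophil elastase, had 4.01, 6.43 and 6.47 RPKM in neuroectoderm, 11.61, 13.6 and 13.56 RPKM in mesendoderm and 4.41, 4.09 and 4.88 RPKM in hESC. It rose in mesendoderm (1.35 ± 0.16, adjusted p = 2.29e-04), and neuroectoderm was not called against hESC (0.26 ± 0.16, adjusted p = 0.226, or 0.00703 without neuroectoderm replicate 1). SERPINB8, an inhibitor of furin on another chromosome, rose in mesendoderm at a low level, to 1.54 RPKM against 0.52 RPKM in hESC (0.72 ± 0.17, adjusted p = 0.00964). Beyond the serpins, WRNIP1, with 1 gene between it and SERPINB9, averaged 13.1 ± 1.16 RPKM in neuroectoderm, 13 ± 0.60 RPKM in mesendoderm and 11.2 ± 0.11 RPKM in hESC (SD, n = 3 each). On the side of SERPINB6, NQO2 averaged 13.1 ± 6.27, 33.7 ± 12.1 and 28.4 ± 8.11 RPKM in these groups (SD, n = 3 each). RIPK1, also on that side, averaged 4.1 ± 0.92, 7.06 ± 0.25 and 5.65 ± 0.15 RPKM in the same order (SD, n = 3 each). The means of NQO2 and RIPK1 had the order of groups of SERPINB9, and those of WRNIP1 did not. The lowest library value among the 4 serpins was that of SERPINB9, 0.12 RPKM, and that of SERPINB8 was 0.33 RPKM, both in neuroectoderm.

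**Figure D3:**
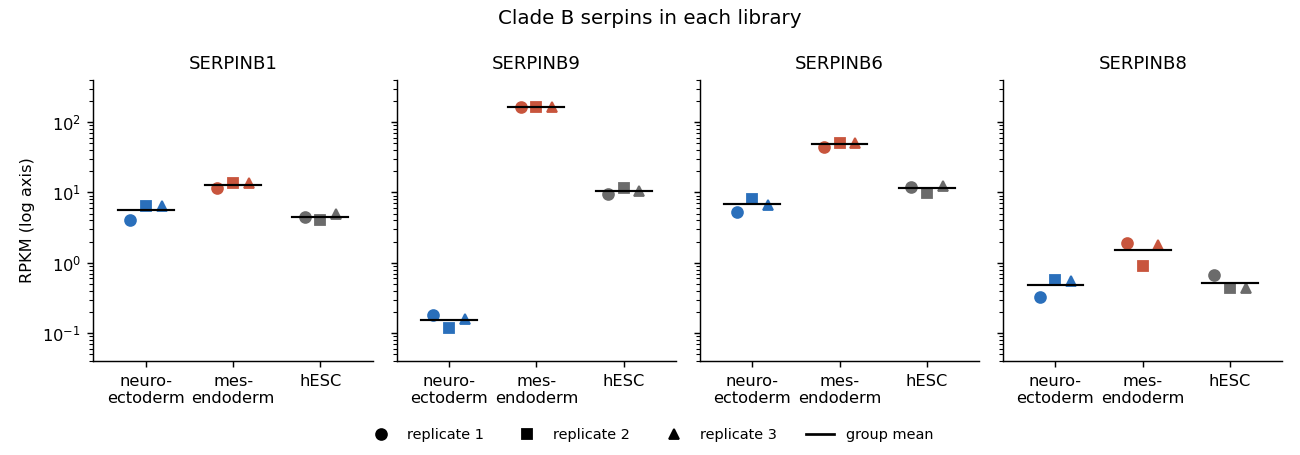
RPKM on a log axis of SERPINB1, SERPINB9, SERPINB6 and SERPINB8 in each library, with symbols for replicates and lines at group means. All 4 are highest in mesendoderm, and SERPINB9 spans the widest range, from 0.12 RPKM in neuroectoderm replicate 2 to 165.84 RPKM in mesendoderm replicate 2.

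The 3 genes most like SERPINB9 over the 9 libraries were BAMBI, a pseudoreceptor that damps TGF-beta and BMP signals (root mean square difference 0.668), GAL (0.804), a neuropeptide, and SPP1 (0.85), a secreted phosphoprotein. BAMBI averaged 0.673 ± 0.076 RPKM in neuroectoderm, 129 ± 33.5 RPKM in mesendoderm and 4.69 ± 0.25 RPKM in hESC (SD, n = 3 each). The root mean square differences of SERPINB9 from its nearest genes were larger than that of B2M from PPP1R2, at 0.119. This measure grows with the range of a gene, so the values do not rank likeness. Between neuroectoderm and mesendoderm SERPINB9 differed by -7.16 and B2M by -1.68.

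The immune ligand list holds surface ligands of T and natural killer cells, complement regulators, death receptors, other granule protease inhibitors and secreted suppressors, and 28 of 53 genes were tested, with 23 under the minimum. Against hESC, 4 were higher and 9 lower in neuroectoderm (46.4% called, median -0.06). In mesendoderm 12 were higher and 2 lower (14 of 28 called, median 0.30), and in neuroectoderm against mesendoderm 3 were higher and 16 lower (67.9%, median -0.56). Over all genes the medians were -0.02, -0.02 and -0.01, and 44.2%, 35.1% and 48.1% were called. Of all genes, 21.9%, 17.0% and 24.0% were called higher and 22.3%, 18.1% and 24.1% lower in the same order. Without the 3 libraries that stood apart, 9 were higher and 11 lower in neuroectoderm against hESC. TGFB1, the suppressive cytokine, had 0.62, 0.61 and 0.22 RPKM in neuroectoderm, 19.17, 11.18 and 17.55 RPKM in mesendoderm and 1.47, 1.7 and 1.86 RPKM in hESC. It was lower in neuroectoderm (-0.86 ± 0.20, adjusted p = 0.00654) and higher in mesendoderm (2.63 ± 0.20, adjusted p = 1.33e-05) than in hESC. VTCN1, an inhibitory ligand of T cells also known as B7-H4, was higher in mesendoderm (10.29, 4.43 and 7.02 RPKM) than in hESC (0.13, 0.25 and 0.09 RPKM), at 2.77 ± 0.22 (adjusted p = 2.07e-05). TNFRSF10A, a death receptor, was lower in neuroectoderm (0.33, 0.25 and 0.55 RPKM) than in hESC (6.15, 5.83 and 6.79 RPKM), at -2.40 ± 0.12 (adjusted p = 9.25e-07). CD274, the checkpoint ligand PD-L1, was named after its values were seen and did not exceed 0.14 RPKM in any library.

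IDO1 was high in hESC and low, though above the floor of 3 reads, in both derived cell types. It had 0.14, 0.13 and 0.07 RPKM in neuroectoderm, 0.32, 0.31 and 0.25 RPKM in mesendoderm and 29.61, 30.2 and 33.21 RPKM in hESC (replicates 1 to 3). The hESC libraries lay far above the other 6, and the mesendoderm libraries lay above the neuroectoderm libraries at a low level. The gene lies on chromosome 8 and was read from NM_002164, a transcript of 2097 bases. The values correspond to 11.8, 19.0 and 6.0 reads in neuroectoderm and 31.0, 24.0 and 21.0 reads in mesendoderm, beside 2515 to 3315 reads in the hESC libraries. A floor of 3 reads amounts to 0.0205 to 0.0388 RPKM in these 6 libraries, so IDO1 was detected in all of them.

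Mean levels of IDO1 were 0.113 ± 0.038 RPKM in neuroectoderm and 31.01 ± 1.93 RPKM in hESC (SD, n = 3 each), so hESC was 273.7 times as high. The log2 difference was -4.84 ± 0.08, or -7.20 ± 0.17 with a pseudocount of 0.1, and 7 of 14473 genes had a more negative one. In mesendoderm the mean was 0.293 ± 0.038 RPKM, against 31.01 ± 1.93 RPKM in hESC (SD, n = 3 each), so hESC was 105.7 times as high. That log2 difference was -4.63 ± 0.08, or -6.31 ± 0.17 with a pseudocount of 0.1, and 1 gene had a more negative one. Neuroectoderm and mesendoderm differed by -0.22 ± 0.08, or -0.89 ± 0.17 with a pseudocount of 0.1. IDO1 stood above 1.7% of tested genes in neuroectoderm, 3.1% in mesendoderm and 87.2% in hESC, and it passed the minimum for a test through hESC alone. The summed pluripotency markers, in the ranges given above, were also lower in both derived cell types, with LIN28A making up most of the sum in neuroectoderm. Not every marker fell in mesendoderm: ZFP42 had 75.37 to 91.8 RPKM there and 80.36 to 85.41 RPKM in hESC, while the other markers lay lower in mesendoderm. The part of the pluripotency markers in the level of IDO1 was not tested.

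IDO2 and ADAM2, on either side of IDO1 in the order of protein-coding genes, averaged 0.0733 to 0.18 RPKM in every group. IDO2 encodes a related enzyme. ZMAT4, with 2 genes between it and IDO1, averaged 0.543 ± 0.155 RPKM in neuroectoderm, 2.15 ± 0.21 RPKM in mesendoderm and 4.1 ± 0.49 RPKM in hESC (SD, n = 3 each), the order of groups of IDO1. SFRP1, with 3 genes between it and IDO1, averaged 76.7 ± 9.8 RPKM in neuroectoderm, 11.5 ± 2.3 RPKM in mesendoderm and 195.0 ± 6.3 RPKM in hESC (SD, n = 3 each). The genes most like IDO1 over the 9 libraries were NPTX1 (root mean square difference 0.321), CHGA (0.399) and CUZD1 (0.423). NPTX1, a neuronal pentraxin, averaged 0.433 ± 0.135 RPKM in neuroectoderm, 0.0767 ± 0.0321 RPKM in mesendoderm and 25.2 ± 2.75 RPKM in hESC (SD, n = 3 each).

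Taken as a list, the rest of the pathway around IDO1 was not high in hESC alone, though AHR was highest there. Of 19 genes of tryptophan uptake and breakdown, 13 were tested. Against hESC, 2 were higher and 3 lower in neuroectoderm (38.5% called, median -0.32), and 5 were higher and 0 lower in mesendoderm (38.5%, median 0.39). Between neuroectoderm and mesendoderm 1 was higher and 7 lower in neuroectoderm (61.5%, median -0.47). Of all genes, 44.2%, 35.1% and 48.1% were called in the same order, so the shares against hESC were near the background. The count for mesendoderm against hESC was 2 without mesendoderm replicate 3, 3 without mesendoderm replicate 1 or hESC replicate 3, and 10 (7 higher, 3 lower) without neuroectoderm replicate 1 or without the 3 libraries that stood apart. The other enzymes that act on tryptophan or kynurenine early, IDO2, TDO2, KMO and KYNU, lay under the minimum and were named after their values were seen. Their means ranged from 0.04 to 0.253 RPKM over all groups.

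SLC7A5, the light chain of the transporter that brings tryptophan into cells, had 11.1, 16.26 and 16.59 RPKM in neuroectoderm, 111.61, 118.79 and 119.92 RPKM in mesendoderm and 33.77, 27.88 and 38.84 RPKM in hESC. It fell in neuroectoderm (-1.15 ± 0.18, adjusted p = 8.11e-04) and rose in mesendoderm (1.78 ± 0.18, adjusted p = 7.74e-05) against hESC. SLC3A2, its heavy chain, rose in mesendoderm to 278.1 ± 32.1 RPKM, against 106.5 ± 14.8 RPKM in hESC (SD, n = 3 each, adjusted p = 0.0135 by limma, or 0.0504 without mesendoderm replicate 3). HAAO, an enzyme further down the pathway, rose in mesendoderm to 4.89, 5.3 and 4.35 RPKM, against 1.22, 1.15 and 1.24 RPKM in hESC (1.41 ± 0.16, adjusted p = 1.52e-04). AHR, a receptor on the same list, had 0.68 to 0.84 RPKM in neuroectoderm, 1.4 RPKM in mesendoderm and 1.75 to 1.82 RPKM in hESC. By limma it was lower in neuroectoderm than in hESC (-0.68 ± 0.08, adjusted p = 1.21e-04). Mesendoderm was not called against hESC (adjusted p = 0.0588, or 0.0415 without neuroectoderm replicate 1).

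**Figure D4:**
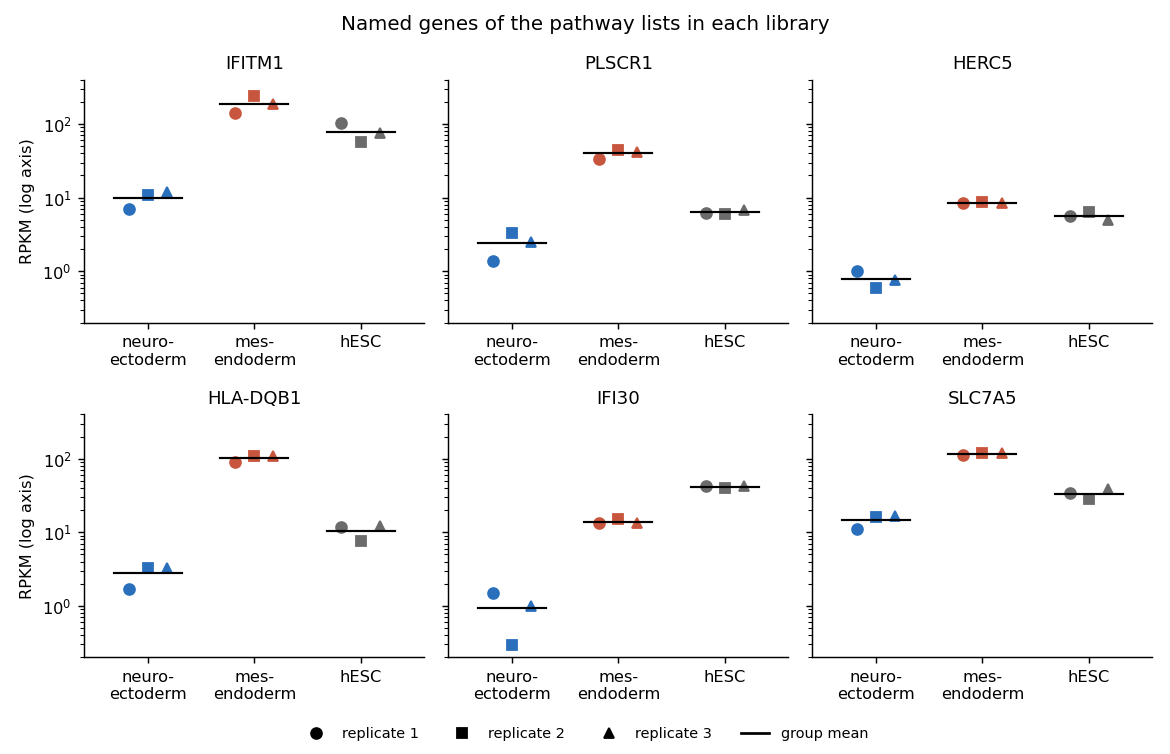
RPKM on a log axis of IFITM1, PLSCR1, HERC5, HLA-DQB1, IFI30 and SLC7A5 in each library, with symbols for replicates and lines at group means. Neuroectoderm is lowest for all 6, mesendoderm is highest for 5, and IFI30 is highest in hESC at 40.54 to 42.73 RPKM.

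More interferon-stimulated genes were lower than higher in both derived cell types, and 40 of the 68 listed beside B2M and IDO1 were tested, with 28 under the minimum. Against hESC, neuroectoderm had 4 higher and 22 lower (65.0% called, median -0.55), and mesendoderm had 10 higher and 17 lower (67.5%, median -0.24). In neuroectoderm against mesendoderm 6 were higher and 18 lower (60.0%, median -0.27). Beside these stand 44.2%, 35.1% and 48.1% of all genes called, with 22.3%, 18.1% and 24.1% lower and medians of -0.02, -0.02 and -0.01. IFITM1, a membrane protein that blocks viral entry, had 7.11, 11 and 11.9 RPKM in neuroectoderm, 140.87, 240.23 and 187.57 RPKM in mesendoderm and 102.13, 57.08 and 74.62 RPKM in hESC. It was lower in neuroectoderm (-2.83 ± 0.28, adjusted p = 5.24e-05) and higher in mesendoderm (1.28 ± 0.28, adjusted p = 0.00712) than in hESC, and reads may be shared with IFITM2 and IFITM3. PLSCR1, a phospholipid scramblase, had 1.36, 3.29 and 2.52 RPKM in neuroectoderm, 33.38, 44.47 and 41.7 RPKM in mesendoderm and 6.25, 5.93 and 6.7 RPKM in hESC. It was higher in mesendoderm than in hESC by 2.48 ± 0.21 (adjusted p = 2.64e-05). HERC5, the ligase of the ubiquitin-like protein ISG15, was lower in neuroectoderm (1.0, 0.59 and 0.75 RPKM) than in hESC (5.56, 6.33 and 4.94 RPKM), at -1.89 ± 0.11 (adjusted p = 2.43e-06). ADAR, an RNA editing enzyme and the most abundant tested gene of the list after IFITM1, differed by -0.47 ± 0.12 in neuroectoderm against hESC (adjusted p = 0.0117, or 0.0542 without hESC replicate 3).

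MHC class II genes are not partners of B2M and stand here for comparison, and 7 of 16 were tested. Set against hESC, neuroectoderm had 0 higher and 3 lower (42.9% called) and mesendoderm 2 higher and 1 lower (42.9%), and set against mesendoderm, neuroectoderm had 1 higher and 4 lower (71.4%), where 44.2%, 35.1% and 48.1% of all genes were called. Without neuroectoderm replicate 1 the count was 5 in neuroectoderm against hESC and 5 in mesendoderm against hESC. HLA-DQB1, a class II beta chain, had 1.71, 3.29 and 3.3 RPKM in neuroectoderm, 91.14, 107.57 and 109.79 RPKM in mesendoderm and 11.86, 7.51 and 12.1 RPKM in hESC. It rose in mesendoderm against hESC by 3.20 ± 0.23 (adjusted p = 1e-05) and fell in neuroectoderm against hESC (-1.61 ± 0.23, adjusted p = 4.4e-04). The order of the groups was that of SERPINB9. Reads of HLA-DQB1 may be shared with near-identical copies, and the treatment of such reads is not given in the sources used here. IFI30, a thiol reductase of antigen processing, had 1.48, 0.29 and 1.01 RPKM in neuroectoderm, 13.18, 15.32 and 13.17 RPKM in mesendoderm and 42.73, 40.54 and 41.98 RPKM in hESC. It fell in neuroectoderm (-4.52 ± 0.21, adjusted p = 5.67e-07) and in mesendoderm (-1.52 ± 0.21, adjusted p = 5.16e-04) against hESC, the direction of IDO1 in both.

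**Figure D5:**
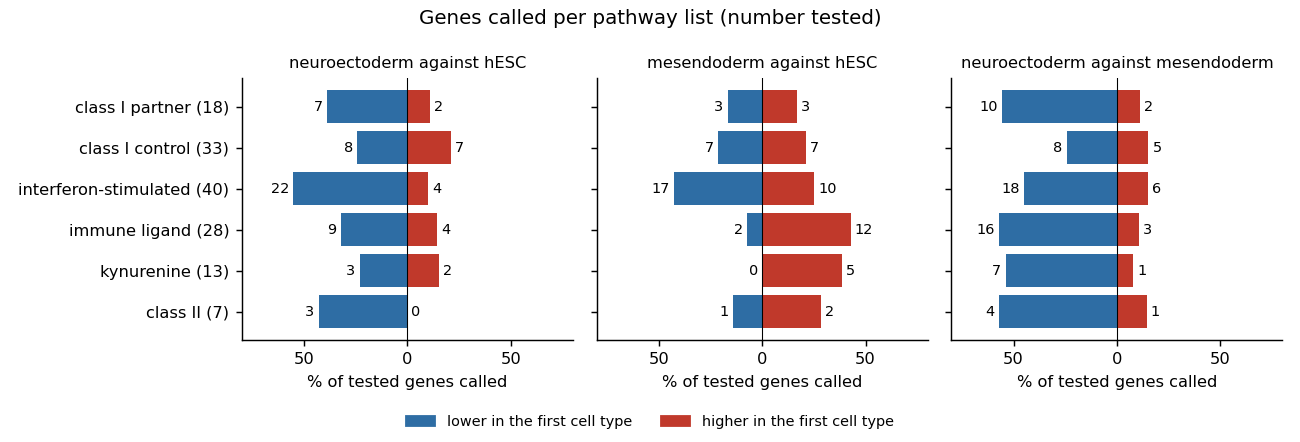
Percent of tested genes of each list that were called in the 3 comparisons, lower to the left in blue and higher to the right in red, with counts at the bars and the number tested beside each list. In mesendoderm against hESC the interferon-stimulated list has 17 lower and 10 higher, while the immune ligand list has 2 lower and 12 higher. Over all genes, not drawn, 18.1% were lower and 17.0% higher in that comparison.

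Set side by side, the 3 genes had 3 different orders of groups. B2M was highest in mesendoderm, with neuroectoderm and hESC not separated. SERPINB9 was highest in mesendoderm, then hESC, then neuroectoderm, and IDO1 was highest in hESC, then mesendoderm, then neuroectoderm. At the threshold used for all genes, 2 of the 3 were called lower and 0 higher in neuroectoderm against hESC, where 44.2% of all genes were called. Mesendoderm against hESC had 2 called higher and 1 lower, where 35.1% of all genes were called, and in neuroectoderm against mesendoderm 0 higher and 2 lower, where 48.1% were. Groups did not overlap for 2 of the 3 genes in neuroectoderm against hESC (51.9% of all genes), for 3 in mesendoderm against hESC (54.7%) and for 3 in neuroectoderm against mesendoderm (57.2%). The genes were picked from these same contrasts, so nothing is read from these counts, and the comparisons against hESC share the hESC libraries. After removal of small RNA genes and rescaling of the other genes, the share of all calls that were higher was 36.9% in place of 49.5% in neuroectoderm against hESC and 38.1% in place of 48.4% in mesendoderm against hESC. The median of all genes moved by -0.1 and -0.11 on the log2 scale. Under that scaling SERPINB9 differed by -3.40 and 3.72 and IDO1 by -4.94 and -4.73 in these 2 comparisons. Within hESC, levels per length ranked IDO1 above B2M and B2M above SERPINB9. In mesendoderm SERPINB9 ranked above B2M and IDO1 stood at 0.25 to 0.32 RPKM, and in neuroectoderm B2M alone exceeded 1 RPKM.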

How the data were processed

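Total RNA of 9 H9 libraries (3 neuroectoderm, 3 mesendoderm, 3 hESC) was extracted so as to retain small RNA, and Ion Torrent libraries were made after DNase digestion and ribosomal RNA depletion, per the labels' protocols. The authors deposited RPKM values of 38759 RefSeq transcripts, rounded to 2 decimals. Per the submitters' processing notes, the aligners were TopHat, TopHat2 2.0.13 and Bowtie2 and the build was hg19. Which counter made the values, whether it used strand and how it handled multimapped reads is not given in the sources used here. Samples were grouped by their titles.

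Each symbol was represented by its transcript with the highest mean. Genes averaging 0.5 RPKM or more (14473) were fitted as log2(RPKM + 1) in 1 model over all libraries with limma 3.58.1 (R 4.3.3, eBayes with trend), and calls are Benjamini-Hochberg adjusted p under 0.05 over all of them. Tables and figures were made with Python 3.11.15, pandas 2.3.3 and matplotlib 3.10.9. Read numbers follow from the steps of low values (94.3% to 97.5% of 193 to 242 values per library were within 0.1 of a whole read), with transcript lengths of GENCODE. Symbols of protein-coding genes were placed in order along chromosomes with a RefSeq annotation of another build, from which no coordinates of genes were taken. Only protein-coding genes were counted as lying between others.

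The members and lists were chosen with earlier results of these data known. Of 220 list entries 203 were matched, 139 were tested and 17 were not analysed here. Genes named from a list are taken from up to 4 called genes with the largest absolute difference per comparison and up to 2 most abundant tested genes. For each of the 3 genes, the 3 genes with the smallest root mean square difference over 9 libraries, after subtraction of each gene's own mean, were named as most alike. Genes outside this rule are named as such. Alternatives were the pseudocount, the minimum, rescaling without small RNA, median-ratio scaling, summed transcripts, a replicate block, and libraries left out. Deviations from the group mean of same-numbered libraries correlated at 0.229 to 0.392 between neuroectoderm and mesendoderm and at -0.738 to 0.401 in pairs with hESC. Libraries of unlike numbers were not compared and no label gives a pairing, so these values cannot show that same-numbered libraries were paired. The main fit used no block. A fit of neuroectoderm and mesendoderm alone with the number as a block was added after seeing the data.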

Additional observations from a re-analysis of the deposited data

Results flagged for a closer look

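The results here are those of SERPINB9 and of genes that the naming rule picked from the lists, each on opposite sides of hESC in neuroectoderm and mesendoderm. With all libraries, each list gene was called against hESC in both derived cell types, in opposite directions. It was also called between them, by limma with adjustment over all genes. The limma call of HERC5 in mesendoderm against hESC (0.54, adjusted p = 0.00604) was lost with small RNA left out (adjusted p = 0.0851). Calls of SOCS1, NFKBIA, ERAP1 and EZH2 against hESC were also lost under some alternatives, as given above. SERPINB9 differed by -7.16 between neuroectoderm and mesendoderm, with every neuroectoderm library below and every mesendoderm library above every hESC library, and no p-value is given for it, although the gene was in the fit across all genes, because it was chosen with these values in view. Other list genes that meet the same description but were not picked are left out here. HLA-DQB1 differed by -4.81 between neuroectoderm and mesendoderm (adjusted p = 3.83e-07), IFITM1 by -4.11 (3.64e-06), PLSCR1 by -3.62 (1.26e-06) and TGFB1 by -3.50 (1.1e-06). SLC7A5 differed by -2.93 (adjusted p = 1.87e-06), SERPINB6 by -2.69 (1.13e-06), HERC5 by -2.43 (3.76e-07), SOCS1 by -2.09 (3.18e-04) and NFKBIA by -1.72 (5.89e-05), all lower in neuroectoderm. ERAP1 differed by 1.15 (adjusted p = 1.54e-05) and EZH2 by 1.08 (1.91e-05), both higher in neuroectoderm than in mesendoderm.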

How the results depend on the processing

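The 3 genes kept the direction of each difference under all alternatives, except B2M in neuroectoderm against hESC, which lay between -0.16 and 0.28 without single libraries, at 0.05 with median-ratio scaling and at 0.24 without the 3 libraries that stood apart. A pseudocount of 0.1 widened the differences of SERPINB9 and IDO1. With the replicate block over all libraries, 5643 genes were called in neuroectoderm against hESC (6392 without it), 4224 in mesendoderm against hESC (5077) and 6250 for neuroectoderm against mesendoderm (6965), and SERPINB9 differed by -3.31 ± 0.11, 3.86 ± 0.11 and -7.16 ± 0.11 in the same order. For the neuroectoderm and mesendoderm libraries alone, the fit with the replicate block called 6731 genes. The calls of CALR (adjusted p = 0.051), PDIA3 (0.0508) and HLA-DPA1 (0.112) between these cell types were lost, with no other call of a named gene changed and no list count moved by over 1.5 times.

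Counts of calls that moved by over 1.5 times were, without the 3 libraries that stood apart, 20 class I control genes in neuroectoderm against mesendoderm (13 in all libraries), 20 immune ligand genes in neuroectoderm against hESC (13), 10 kynurenine genes in mesendoderm against hESC (5) and 5 class II genes in neuroectoderm against hESC (3). With small RNA left out, 3 class I partner genes were called in mesendoderm against hESC (6), and with a mean of at least 1 RPKM, 3 class II genes in neuroectoderm against mesendoderm (5), since fewer were tested. With single libraries left out, class I partner calls ranged from 2 to 8 in mesendoderm against hESC and, between neuroectoderm and mesendoderm, from 5 to 12. Class I control calls ranged from 9 to 15 in neuroectoderm and 7 to 15 in mesendoderm against hESC, kynurenine calls from 2 to 10 in mesendoderm against hESC, and class II calls from 3 to 5 in neuroectoderm and 3 to 5 in mesendoderm against hESC. The causes were not tested.

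Reversals occurred among the most abundant genes of the lists, all in differences that were not called with all libraries. Without single libraries, mesendoderm against hESC gave -0.045 to 0.255 for CALR, -0.009 to 0.266 for PSMB6, -0.211 to 0.298 for IRF3 and -0.153 to 0.096 for BAG6, and BAG6 ranged from -0.063 to 0.312 in neuroectoderm against hESC. Between neuroectoderm and mesendoderm the ranges were -0.032 to 0.063 for ADAR, -0.056 to 0.318 for BAG6, -0.226 to 0.17 for PVRL2 and -0.265 to 0.23 for LGMN. With small RNA left out, CALR was -0.007 and IRF3 -0.042 in mesendoderm and BAG6 -0.042 in neuroectoderm, each against hESC. Without the 3 libraries that stood apart, CALR was -0.004 and IRF3 -0.146 in mesendoderm against hESC. Between neuroectoderm and mesendoderm PVRL2 was then 0.178 and LGMN 0.223, and LGMN was called (adjusted p = 0.0461 by limma). In that comparison median-ratio scaling gave 0.021 for PVRL2. Of the values of single genes under all alternatives, 1713 kept direction and side of the threshold (or, for the 3 genes, moved by less than the replicate SD), 70 lost a call, 18 gained one, 10 moved by more than that SD and 23 reversed. Depth limits values near the floor, 0.043 to 0.0813 RPKM at 1 kb.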

Other observations

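HLA-DQB1 reached 91.14 to 109.79 RPKM in mesendoderm, while its partner alpha chain HLA-DQA1 had 0.73, 1.0 and 0.74 RPKM there, and CIITA, the transactivator of class II genes, had 0.02, 0.04 and 0.02 RPKM. In hESC HLA-DQA1 had 0.06, 0.35 and 0.16 RPKM beside 7.51 to 12.1 RPKM of HLA-DQB1. HLA-DQA1 and CIITA were named after their values were seen and lay under the minimum for a test.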
